A study of Mus musculus with 12 samples.

Results

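The transforming growth factor beta (TGF-beta) pathway was followed through 9 genes: the ligands Tgfb1, Tgfb2 and Tgfb3, the activin subunit gene Inhba, the receptors Tgfbr1, Tgfbr2 and Tgfbr3, and the feedback genes Smad7 and Skil. They were picked by symbol and identifier from a table of raw read counts for 55573 genes, and all 9 passed the filter on low counts, which kept 19174 genes. The table covers mouse embryonic fibroblasts (MEFs) of strain C57BL/6 taken at E13.5, in which doxycycline switches on Oct4, Sox2, Klf4 and Myc (OSKM), the factors that turn fibroblasts into induced pluripotent stem cells. All groups carried this inducible cassette and were kept in iPSC medium for 72 h. The groups were MEF (no addition), MEF+B12 (2 µM vitamin B12), OSKM (1 µg/ml doxycycline) and OSKM+B12 (both), with 3 libraries each and 12 in all. Each clone was grown from its own embryo and gave 1 library to every group. Doxycycline went only to the OSKM groups, so its own effect cannot be told apart from that of the factors. The library titles carry one year for clone 1 and an earlier year for clones 2 and 3.

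TGF-beta ligands are secreted in a latent complex and act, once released, on a pair of receptor kinases encoded by Tgfbr1 and Tgfbr2, which phosphorylate SMAD2 and SMAD3. The SMADs then drive genes of the extracellular matrix and the cytoskeleton, and also Smad7 and Skil, whose products shut the signal down. In fibroblasts the pathway upholds the mesenchymal state, and inhibitors of its receptors are known to ease reprogramming. RNA levels say nothing of how much latent ligand was released.

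Each library held between 56971244 and 79236795 counted read pairs, and each of the 9 genes had at least 529 of them in every library. Levels are given as CPM, counts per 1000000 after correction for library composition, and fold changes come from edgeR's quasi-likelihood test over all genes, with clone as a block and a threshold of 0.05 on the adjusted p-value. The RNA of the factors differed unevenly with doxycycline. Klf4 was not higher in any clone, at 139, 143 and 124 CPM in MEF and 121, 123 and 119 CPM in OSKM. Pou5f1 (Oct4) was at 18.5 to 20.7 CPM in the OSKM and OSKM+B12 libraries of clones 1 and 2. It was at 2.34 and 2.86 CPM in those of clone 3, and at 0.468 CPM or less without doxycycline. Sox2 went from 0.658, 0.522 and 0.379 CPM in MEF to 15.5, 13.3 and 2.33 CPM in OSKM. Myc went from 22.5, 16.4 and 18.6 CPM to 53.4, 43.97 and 20.05 CPM. Clone 3 therefore stood apart in Pou5f1, Sox2 and Myc among the induced libraries. Comparisons of induced with uninduced cells are given with and without it. The 10 fibroblast markers were high, summing to between 83395 and 134993 CPM. The 8 muscle markers summed to between 4.50 and 10.2 CPM, mostly from Des (2.28 to 7.62 CPM), with Myod1, Myog and Ckm at 0.0641 CPM or less. The 8 endothelial markers summed to between 41.95 and 145 CPM, of which Tek alone held 34.3 to 139 CPM, and Pecam1, Tie1, Emcn, Esam and Cldn5 were each at 0.426 CPM or less. The 12 macrophage markers summed to between 593 and 1594 CPM.

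Vitamin B12 came with more Tgfb1 and less Tgfb2 RNA. Tgfb1, the main ligand of immune and connective tissue, lies on chromosome 7 (GRCm38, 25687002 to 25705077, plus strand). In MEF it was at 57.2, 67.7 and 61.4 CPM in clones 1, 2 and 3, and in MEF+B12 at 75.7, 88.2 and 77.8 CPM. Every MEF+B12 library thus lay above every MEF library. The OSKM libraries held 47.4, 49.2 and 59.1 CPM against 57.02, 67.0 and 72.6 CPM in OSKM+B12, so these groups overlapped although each clone was higher with B12. The rise was 1.30-fold in MEF, a log2 fold change of 0.38 ± 0.08 (SE, n = 3 per group, edgeR adjusted p = 0.0422). For OSKM the estimate was 0.33 ± 0.08 and missed the threshold (adjusted p = 0.0882). Averaged over both states it was 0.36 ± 0.06, a 1.28-fold rise (adjusted p = 0.00397).

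Tgfb2, a ligand with a large part in development that binds its receptors weakly without the co-receptor betaglycan, lies on chromosome 1 (186622792 to 186705989, minus strand). It was at 52.9, 62.9 and 90.5 CPM in MEF, 45.8, 51.3 and 80.4 CPM in MEF+B12, 49.3, 59.1 and 89.9 CPM in OSKM, and 41.6, 55.0 and 75.7 CPM in the OSKM cells given B12. The groups overlapped, and clone 3 was the highest in each. Within clones the gene was lower with B12 in 6 of 6 pairs. The change averaged over both states was -0.21 ± 0.04 on the log2 scale (0.864-fold, edgeR adjusted p = 0.00623). In MEF alone it was -0.22 ± 0.05 (adjusted p = 0.0621) and in OSKM alone -0.20 ± 0.05 (adjusted p = 0.118), neither past the threshold.

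The bases just before the transcription starts of the 2 genes that changed are shown because the changes ran in opposite directions and the sequences differ in kind. Each line gives the 250 bases before the start as RefSeq places it on GRCm38.p6, in the direction of the gene, at chr7:25686752-25687001 (plus strand) for Tgfb1 and chr1:186705990-186706239 (minus strand) for Tgfb2. Capitals mark every match, on either strand, to GGGCGG (the SP1 box), TGACGTCA (the cyclic AMP element), TGANTCA (AP-1), GTCTAGAC (the palindromic SMAD site), TATAAA (the TATA box) or CACGTG (the E-box).
Tgfb1: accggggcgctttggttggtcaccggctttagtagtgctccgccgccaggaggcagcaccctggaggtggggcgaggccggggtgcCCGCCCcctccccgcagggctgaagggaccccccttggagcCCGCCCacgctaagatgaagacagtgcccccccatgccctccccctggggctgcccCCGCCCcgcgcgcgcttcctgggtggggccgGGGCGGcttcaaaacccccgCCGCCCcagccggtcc
Tgfb2: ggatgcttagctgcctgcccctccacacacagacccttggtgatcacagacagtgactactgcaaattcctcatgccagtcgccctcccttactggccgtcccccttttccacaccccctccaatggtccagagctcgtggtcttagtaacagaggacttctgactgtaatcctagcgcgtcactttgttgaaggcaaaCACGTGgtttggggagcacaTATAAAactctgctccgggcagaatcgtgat
The Tgfb1 stretch had 75.2% G and C and 5 matches to GGGCGG, a motif found in 32.7% of the 32851 promoter stretches of the same length. The Tgfb2 stretch had 53.6% G and C, with 1 TATAAA match 31 to 26 bases before the start, as in 12.4% of stretches, and 1 CACGTG match 51 to 46 bases before it, as in 6.02%. Neither held TGACGTCA (1.55% of stretches), TGANTCA (6.75%) or GTCTAGAC (0.167%). These are matches of letters only, and binding was not measured here. The RefSeq table had an entry for 5 of the 9 genes.

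The other ligand genes gave smaller estimates that did not pass the test. Tgfb3, a ligand active in palate and lung development, lies on chromosome 12 (86056745 to 86079041, minus strand). With clones in order, it was at 114, 151 and 225 CPM in MEF and 102, 144 and 212 CPM in MEF+B12. After induction it was at 98.9, 142 and 219 CPM, and with B12 added at 85.1, 125 and 206 CPM. It was lower with B12 in 6 of 6 pairs, but the averaged change of -0.13 ± 0.04 did not pass the test (edgeR adjusted p = 0.0919). Inhba (chromosome 13, 16011851 to 16031621, plus strand) encodes the subunit of activin A, a ligand that signals through other receptors to the same SMADs. It was at 53.7, 41.1 and 39.4 CPM in MEF, 44.6, 33.8 and 36.7 CPM in MEF+B12, 36.7, 26.8 and 34.7 CPM in OSKM, and 32.7, 25.4 and 31.9 CPM in the cells given both agents. It too was lower with B12 in 6 of 6 pairs, with an averaged change of -0.17 ± 0.06 that missed the threshold (adjusted p = 0.147). So 3 of the 9 genes were lower in all 6 pairs, against 7.64% of all genes tested, and 1 was higher in all 6, against 8%.

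**Figure D1:**
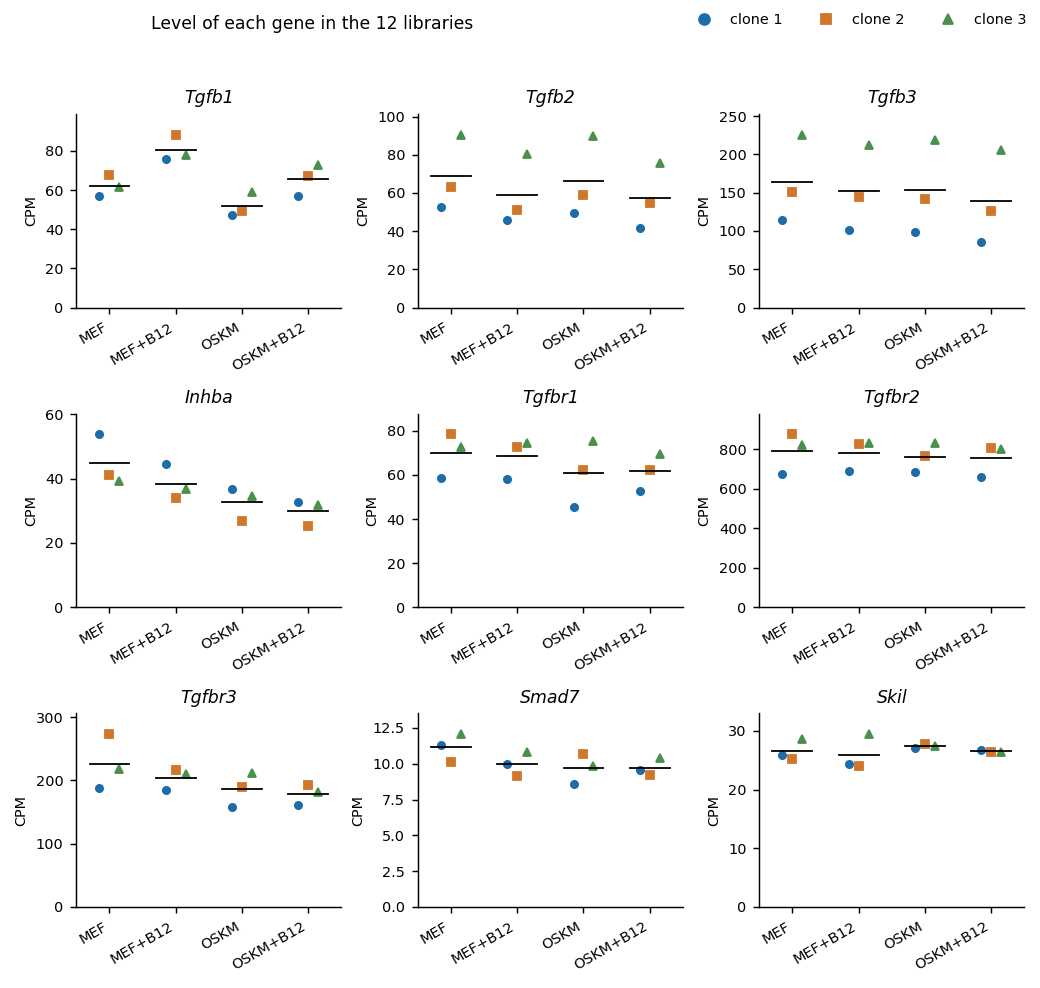
Level in CPM (vertical axis, from 0) of each of the 9 genes in the 12 libraries by group (horizontal axis); points are single libraries with clone shown by colour and shape, and bars are group means of 3 libraries. Tgfb1 in MEF+B12 (75.7 to 88.2 CPM) lay above MEF (57.2 to 67.7 CPM), and Tgfb3 was ordered by clone in every group.

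The receptors showed no B12 call. Tgfbr1 lies on chromosome 4 (47353222 to 47414931, plus strand), Tgfbr2 on chromosome 9 (116084293 to 116175360, minus strand) and Tgfbr3 on chromosome 5 (107106570 to 107289629, minus strand). Tgfbr2, the kinase that binds the ligand, was at 676, 875 and 823 CPM in MEF and 688, 826 and 831 CPM in MEF+B12, and its averaged B12 change was -0.015 ± 0.037 (edgeR adjusted p = 0.889). After induction it was at 687, 768 and 831 CPM, and with B12 as well at 660, 806 and 802 CPM. Its groups overlapped throughout, with clone 1 the lowest in each. Tgfbr1, the kinase that phosphorylates the SMADs, was at 58.5, 78.4 and 72.5 CPM in MEF, 58.2, 72.5 and 74.7 CPM in MEF+B12, 45.7, 62.4 and 75.2 CPM in OSKM and 52.9, 62.3 and 69.6 CPM in OSKM+B12, with an averaged B12 change of 0.00011 ± 0.053 (adjusted p = 1.00). Tgfbr3 encodes betaglycan, the co-receptor that hands Tgfb2's product to the kinases. Its averaged B12 change was -0.10 ± 0.05 (adjusted p = 0.423), and it was at 188, 273 and 218 CPM in MEF, 184, 216 and 209 CPM in MEF+B12, 157, 190 and 211 CPM in OSKM and 161, 193 and 182 CPM in OSKM+B12. Clone 2 of MEF was the highest of the 12 libraries for this gene. A locus of unproven status, Gm43422, overlaps Tgfbr3 on the same strand, so its count is uncertain where they share bases.

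The feedback genes were the least abundant of the 9 per length. Smad7, whose product blocks the receptor, was between 8.56 and 12.1 CPM over the 12 libraries, and Skil, which encodes the SMAD co-repressor SnoN, between 24.0 and 29.4 CPM. Their averaged B12 changes were -0.08 ± 0.06 (edgeR adjusted p = 0.604) and -0.04 ± 0.05 (adjusted p = 0.703). All 4 groups overlapped for Smad7. Skil in OSKM was narrow, at 27.1, 27.8 and 27.4 CPM, and lay inside the MEF range of 25.2 to 28.7 CPM.

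Of the 9 genes, 1 passed the threshold for B12 in MEF (Tgfb1) against 1.38% of all genes tested, and 2 passed it for B12 averaged over both states (Tgfb1 higher, Tgfb2 lower) against 3.84% of all genes, of which 3.46% were higher and 0.381% lower. In OSKM, edgeR called 0 of the 9 against 1.06% of all genes, although 3 had an unadjusted p under 0.05 (Tgfb1, Tgfb2 and Tgfb3) against 9.82%. The tool DESeq2 called 2 of the 9 in MEF and 2 in OSKM, both times Tgfb1 and Tgfb2, against 2.9% and 2.45% of the genes it adjusted, and 3 for the average (with Tgfb3) against 5.39%. The interaction, which is the B12 change in OSKM minus that in MEF, gave 0 calls in edgeR and 0 in DESeq2 among the 9 genes and 0% of all genes in each, and 0 of the 9 had an unadjusted p under 0.05 against 1.42%. For Tgfb1 the interaction was -0.04 ± 0.11 and for Tgfb2 0.02 ± 0.07. The median averaged B12 change of the 9 genes was -0.08, beside -0.01 over all genes.

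The averaged Tgfb1 and Tgfb2 calls needed the comparison within clones and clone 2, and that of Tgfb2 also needed clone 3. Without the replicate block the averaged change of Tgfb1 was 0.36 with an edgeR adjusted p of 0.0913, and that of Tgfb2 was -0.21 with an adjusted p of 0.998. Without clone 2 the adjusted p-values were 0.111 and 0.101. Without clone 3 they were 0.00868 and 0.122, and within the clones of the earlier year (without clone 1) 0.0475 and 0.0488. The Tgfb1 call in MEF was lost when any clone was left out, at adjusted p-values from 0.0694 to 0.470, and at 0.606 without the block.

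**Figure D2:**
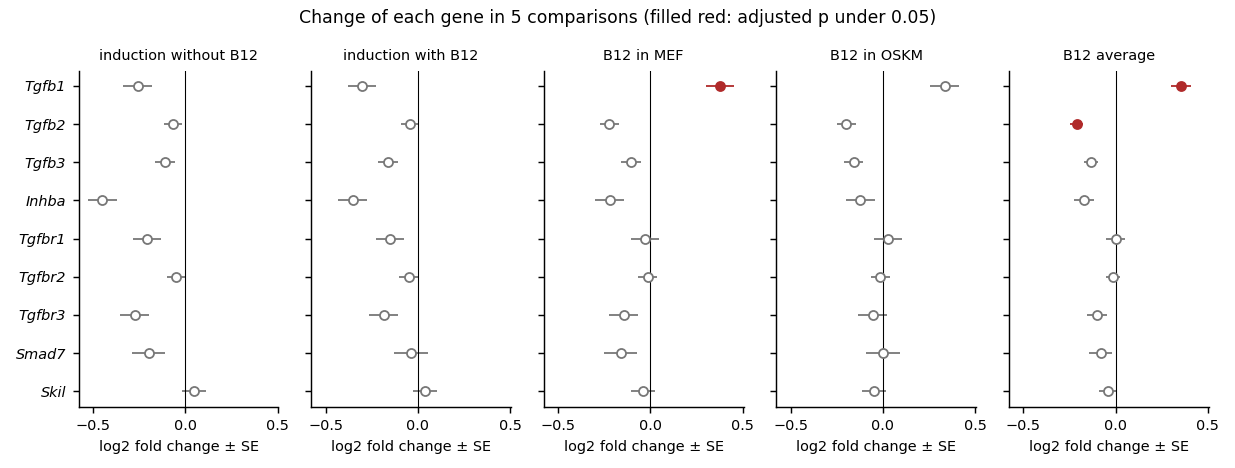
Log2 fold change (horizontal axis) with its standard error for each gene (vertical axis) in 5 comparisons, from 12 libraries; filled red points passed the adjusted threshold of 0.05. Tgfb1 is red at 0.38 for B12 in MEF and at 0.36 for the average, and Tgfb2 is red at -0.21 for the average.

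The mix of ligand transcripts differed with B12. On a scale per length, CPM divided by the kilobases of annotated exons, Tgfb3 made up 62.2%, 64.7% and 70.6% of the summed RNA of the 3 TGF-beta genes in MEF, and Tgfb1 20.96%, 19.5% and 12.9%. The Tgfb1 share was 28.4%, 25.4% and 16.8% in MEF+B12, 19.9%, 15.7% and 12.8% in OSKM, reaching 25.9%, 22.2% and 16.3% in OSKM+B12. In each clone and state the share was higher with B12. The ratio of Tgfb1 to Tgfb2 per length went from 1.24, 1.24 and 0.780 in MEF to 1.90, 1.97 and 1.11 in MEF+B12, and from 1.10, 0.956 and 0.755 in OSKM to 1.57, 1.40 and 1.10 in OSKM+B12. In uninduced cells the summed level of the 3 genes differed little with B12. It was 54.1, 68.9 and 94.5 CPM per kb in MEF and 53.0, 68.9 and 92.0 CPM per kb in MEF+B12. The sum was lower after induction in each clone, at 47.1, 62.0 and 91.9 CPM per kb in OSKM. In OSKM+B12 it was lower again, at 43.6, 59.8 and 88.4 CPM per kb. These shares restate the levels above and were not tested separately.

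**Figure D3:**
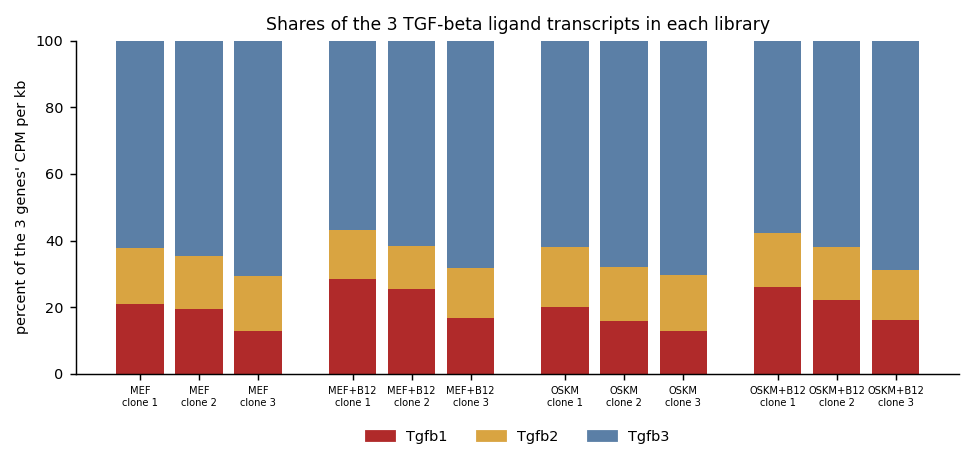
Percent of the summed CPM per kb (vertical axis, 0 to 100) taken by Tgfb1, Tgfb2 and Tgfb3 in each of the 12 libraries (horizontal axis). The Tgfb1 share was between 16.3% and 28.4% with B12 and between 12.8% and 20.96% without it, and it was higher with B12 in each clone.

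Per length, the median levels over the 12 libraries ran from Tgfbr2 (98.2 CPM per kb) through Tgfb3 (42.3), Tgfbr3 (29.3), Tgfb1 (12.7), Tgfbr1 (10.1), Tgfb2 (9.84), Inhba (5.59) and Skil (2.74) to Smad7 (2.22). Tgfbr2, at 80.6 to 107 CPM per kb, lay above every other gene in every library. The ranges of Tgfb3 (25.2 to 66.7) and Tgfbr3 (24.1 to 41.7) overlapped, as did those of Tgfb1 (9.40 to 17.5), Tgfbr1 (6.99 to 11.996) and Tgfb2 (7.18 to 15.6). Inhba (3.97 to 8.41) reached into the range of Tgfbr1 and Tgfb2. Skil (2.47 to 3.04) and Smad7 (1.89 to 2.67) also overlapped.

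For Tgfb2 and Tgfb3 the embryos spanned a wider range than the group means did, and the same held for Tgfbr1, Tgfbr2 and Skil. Tgfb3 averaged 99.8 ± 11.8 CPM in clone 1, 141 ± 10.8 CPM in clone 2 and 216 ± 8.35 CPM in clone 3 (SD, n = 4 groups), a 2.16-fold span. Tgfb2 averaged 47.4 ± 4.83, 57.1 ± 5.02 and 84.1 ± 7.29 CPM, a 1.78-fold span. For Tgfb1 the span was 1.15-fold, for Skil 1.08-fold and for Smad7 1.10-fold, and for the other 4 genes it was between 1.21-fold and 1.36-fold. With 1 embryo per clone, and clone 1 titled with another year, embryo and year cannot be told apart for clone 1.

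Nrros was the gene of the wider pathway that edgeR called for B12. It encodes a surface anchor that holds latent TGF-beta on macrophages and microglia, and it lay in a list of 77 other genes of latency, SMADs, inhibitors, activin and BMP signalling and targets, of which 73 were tested. In MEF it was at 29.6, 19.0 and 15.2 CPM, and in MEF+B12 at 44.1, 34.4 and 27.4 CPM. The induced libraries held 20.3, 14.8 and 14.5 CPM without B12 and 32.1, 28.0 and 26.4 CPM with it. Every OSKM+B12 library lay above every OSKM library, while the MEF groups overlapped, since clone 1 without B12 exceeded clone 3 with it. The log2 fold change was 0.75 ± 0.10 in MEF (edgeR adjusted p = 0.00755), 0.82 ± 0.10 in OSKM (adjusted p = 0.00589) and 0.78 ± 0.07 averaged (1.72-fold, adjusted p = 0.000270). Lrrc32, which encodes GARP, the related anchor of regulatory T cells and platelets, was at 137, 212 and 239 CPM in MEF and 123, 196 and 227 CPM in MEF+B12, with an averaged change of -0.12 ± 0.06 (adjusted p = 0.369). The averaged Nrros call was lost without clone 2 (adjusted p = 0.0586) and without the block (adjusted p = 0.0941). The calls in MEF and in OSKM were lost without clone 3 (adjusted p = 0.0517 and 0.0570), without clone 2 (0.401 and 0.384) and without the block (0.785 and 0.777).

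Macrophage markers moved the same way as Tgfb1 and Nrros with B12. Of 12 such markers, 11 were called higher with B12 averaged over both states, and the exception was Cx3cr1 (-0.45 ± 0.20, edgeR adjusted p = 0.296). Their summed level was 1078, 760 and 593 CPM in MEF, 1594, 1237 and 1003 CPM in MEF+B12, 1021, 651 and 610 CPM in OSKM, and 1295, 1174 and 1014 CPM in OSKM+B12. The sum was higher with B12 by 0.34 to 0.85 on the log2 scale in the 6 pairs, beside 0.27 to 0.45 for Tgfb1. Among the uninduced clones without B12, the sum was highest in clone 1, where Tgfb1 was lowest and Nrros was highest. Whether macrophage RNA had a part in the Tgfb1 and Nrros values was not tested. In such bulk samples more cells of a type and more RNA per cell cannot be told apart.

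**Figure D4:**
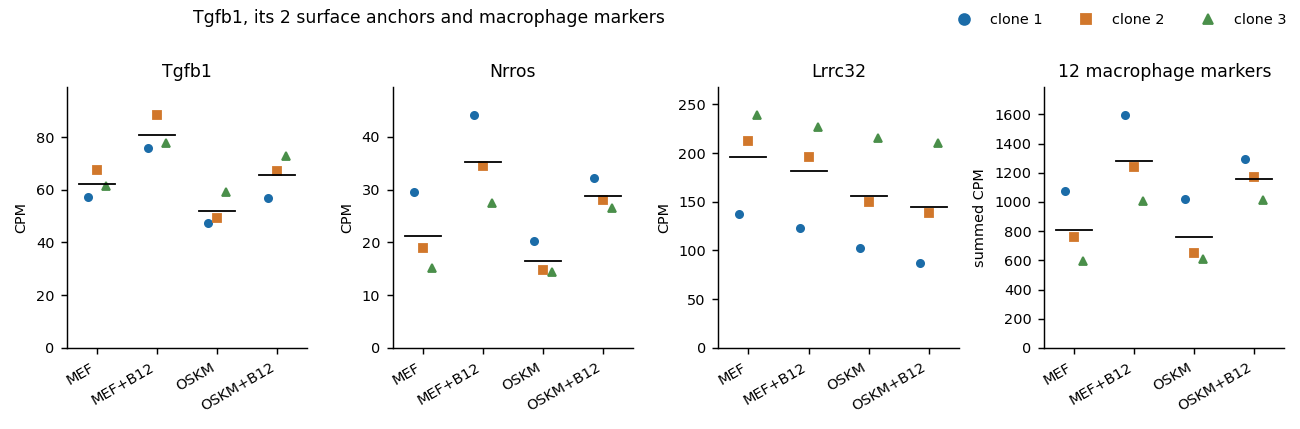
CPM of Tgfb1, Nrros and Lrrc32 and summed CPM of 12 macrophage markers (vertical axes, from 0) in the 12 libraries by group (horizontal axes); points are libraries by clone and bars are group means. Tgfb1, Nrros and the marker sum were higher with B12 in 6 of 6 pairs, and Lrrc32 was lower in MEF+B12 than in MEF, 123 against 137 CPM in clone 1.

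In edgeR, Nrros was the 1 call among the 73 tested genes in MEF, in OSKM and in the average. Of all genes, 1.38%, 1.06% and 3.84% passed in these comparisons. DESeq2 called Nrros too, and for the average it called 6 more of the 73, all lower, against 5.39% of the genes it adjusted. These were Thbs1 and 5 genes widely used as readouts of TGF-beta in fibroblasts. The 5 were the contractile gene Acta2 (-0.24 ± 0.07, DESeq2 adjusted p = 0.0234), the crosslinking enzyme genes Lox and Loxl2, the transcription factor gene Snai2 and the cell cycle inhibitor gene Cdkn2b. Their DESeq2 estimates ran from -0.14 to -0.24. In OSKM, DESeq2 called Acta2 besides Nrros, against 2.45% of the genes it adjusted. In the average 61 of the 73 had a negative edgeR estimate, against 55.1% of all genes, with a median of -0.08 beside -0.01 over all genes, and 19 had an unadjusted p under 0.05, against 15.5% of all genes. The 24 TGF-beta readout genes, mostly of matrix and cytoskeleton, gave 0 edgeR calls, 20 negative estimates and a median of -0.12. Of the 24, 9 had an unadjusted p under 0.05, against 15.5% of all genes. The largest estimates among the 24 were those of the cytokine Il11 (-0.27 ± 0.17, adjusted p = 0.498) and of fibronectin, Fn1 (-0.27 ± 0.10, adjusted p = 0.219). In the latency list, thrombospondin 1 (Thbs1), which can release latent ligand, was at -0.22 ± 0.05 (adjusted p = 0.0511). Among the SMADs the largest estimates were Smad9 at -0.18 ± 0.14 (adjusted p = 0.585) and Smad3 at -0.07 ± 0.03 (adjusted p = 0.299). Among inhibitors they were Smad6 at -0.12 ± 0.06 (adjusted p = 0.366) and the decoy receptor Bambi at 0.09 ± 0.08 (adjusted p = 0.629). On the activin side they were the activin binder Fstl3 at -0.16 ± 0.06 (adjusted p = 0.211) and the receptor Acvr2a at -0.11 ± 0.05 (adjusted p = 0.389). For BMP signalling they were the receptors Bmpr2 at -0.15 ± 0.06 (adjusted p = 0.268) and Bmpr1b at -0.11 ± 0.09 (adjusted p = 0.627), and the target genes Id1 at -0.23 ± 0.20 (adjusted p = 0.635) and Id3 at -0.12 ± 0.08 (adjusted p = 0.521).

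Induction of OSKM went with lower estimates for most of the 9 genes, and none passed edgeR's threshold over all 3 clones. Without B12, 8 of 9 estimates were negative, with a median of -0.20 beside -0.01 over all genes, and 5 had an unadjusted p under 0.05 against 19% of all genes. With B12, 8 of 9 were again negative, with a median of -0.15, and 4 had an unadjusted p under 0.05 against 14.9%. The calls after adjustment were 0 of 9 in both, where 0.073% and 0.104% of all genes passed. DESeq2 called Inhba and Tgfbr3 without B12, against 2.75% of genes, and Tgfb1 and Inhba with it, against 2.35%. Tgfb1, Tgfb3, Inhba and Tgfbr3 were lower with induction in 6 of 6 pairs, against 8.26% of all genes. The MEF libraries serve here and in the comparison of B12 in MEF, and the OSKM+B12 libraries likewise in 2 comparisons.

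Inhba had the largest estimate with induction, at -0.45 ± 0.08 without B12 (edgeR adjusted p = 0.104) and -0.35 ± 0.08 with it (adjusted p = 0.176). Within clones 1, 2 and 3 its differences were -0.55, -0.62 and -0.18 without B12 and -0.45, -0.42 and -0.20 with it, on the log2 CPM scale. Those of Tgfb1 were -0.27, -0.46 and -0.06 without B12 and -0.41, -0.40 and -0.10 with it, and those of Tgfbr3 were -0.26, -0.52 and -0.04 without B12. Clone 3, with the least Pou5f1, had the smallest differences for Tgfb1 and Inhba with and without B12. This did not hold for all 9 genes. With B12, Tgfbr3 had its smallest difference in clone 2. Without B12, the median difference of the feedback genes Smad7 and Skil was -0.17, 0.11 and -0.18 in clones 1, 2 and 3. Without clone 3, edgeR called 4 of the 9 genes lower without B12, where 6.87% of all genes passed. These were Tgfb1 at -0.36 ± 0.07 (adjusted p = 0.0186), Inhba at -0.58 ± 0.06 (adjusted p = 0.00215), Tgfbr1 at -0.34 ± 0.07 (adjusted p = 0.0276) and Tgfbr3 at -0.39 ± 0.08 (adjusted p = 0.0280). With B12 it called Tgfb1 at -0.41 ± 0.07 (adjusted p = 0.0124) and Inhba at -0.43 ± 0.06 (adjusted p = 0.00628), where 5.22% of all genes passed. Leaving out clone 1 or clone 2 instead gave 0 calls among the 9 genes. The shares of all genes in those fits are not given, so this count cannot be set against them. Some markers of other cell types were higher after induction in clones 1 and 2. The 8 mesothelial markers summed to 30.6, 34.9 and 44.8 CPM in MEF and 86.2, 69.1 and 40.4 CPM in OSKM. Of the endothelial markers, Tek went from 38.5, 42.3 and 35.5 CPM to 139, 118 and 46.1 CPM, while the other 7 summed to 4.45, 4.35 and 6.47 CPM in MEF and 6.63, 6.43 and 7.13 CPM in OSKM. The sum of the 12 macrophage markers instead differed with induction by -0.08, -0.22 and 0.04 on the log2 scale without B12, in clones 1, 2 and 3. With B12 it differed by -0.30, -0.08 and 0.01. The part of any of these markers in the result was not tested.

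**Figure D5:**
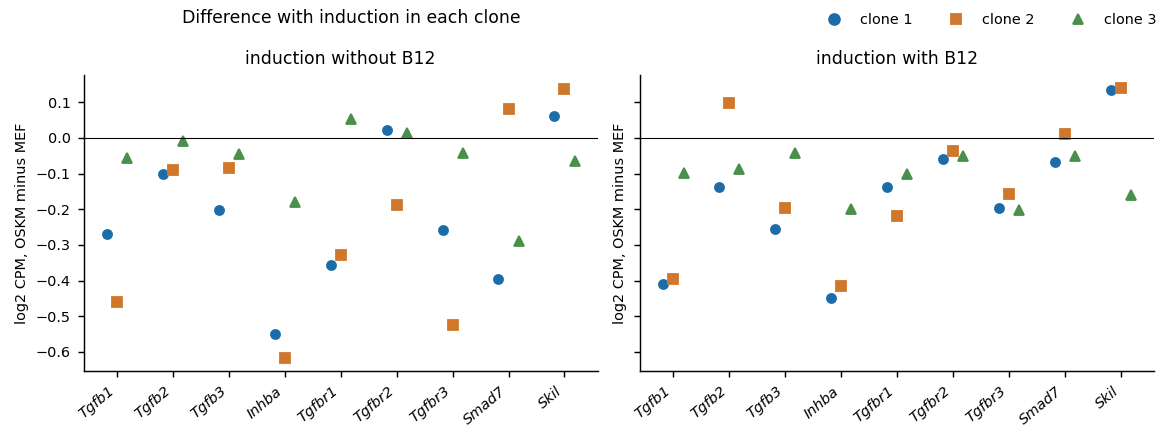
Difference in log2 CPM between induced and uninduced libraries of the same clone (vertical axis) for the 9 genes (horizontal axis), without B12 (left) and with it (right); each point is 1 clone. Tgfb1 and Inhba were below 0 in all 3 clones, and for both genes clone 3 (triangles) was nearest to 0, at -0.06 and -0.18 without B12.

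An F test asked of every gene whether the clones responded unequally to induction. None of the 9 passed after adjustment in edgeR or DESeq2, where 2.15% and 3.6% of all genes did, and 3 had an unadjusted p under 0.05 (Tgfb1, Inhba and Skil) against 14.8%. The smallest adjusted p was that of Tgfb1, at 0.0971, followed by Inhba at 0.120. Of the wider pathway, 7 of 73 genes passed in edgeR, against 2.15% of all genes. The count was 16 without clone 1, 4 without clone 2 and 0 without clone 3. The shares of all genes in those fits are not given, so these counts cannot be set against them. The 7 genes included Ltbp2 and Ltbp4, whose products bind latent ligand or microfibrils, the activin subunit gene Inhbb, the BMP target Id1, and the targets Tgm2 and Ccn1. Inhbb was at 71.6, 71.3 and 57.7 CPM in MEF and 38.7, 39.6 and 52.1 CPM in OSKM. Id1 was at 10.2, 5.90 and 9.79 CPM in MEF and 20.1, 16.0 and 9.82 CPM in OSKM. Clone 3 had the smallest difference for both genes. Of the 73 genes, 0 were called by edgeR for induction itself over all 3 clones, with 32 at an unadjusted p under 0.05 without B12, against 19% of all genes, and 34 with it, against 14.9%. DESeq2 called 9 of the 73 in each, against 2.75% and 2.35% of the genes it adjusted. Without clone 3, edgeR called 13 of them without B12 (2 higher, 11 lower), against 6.87% of all genes, and 12 with it (3 higher, 9 lower), against 5.22%. In the same clones the interaction gave 0 edgeR calls among the 73 and 0% of all genes, and 2 of the 73 had an unadjusted p under 0.05 against 2.66%. Negative estimates numbered 57 of 73 without B12, against 52% of all genes, and 55 with it, against 49.4%. Among the 24 TGF-beta readout genes they numbered 21 and 23.

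For each of the 9 genes, the genes whose levels ran most alike were sought among 11530 coding genes, by Pearson's r over the 12 libraries after subtracting each clone's mean. The libraries are shared, so these values are a description. For Tgfb1 they were Sirpa and Cndp2 (r = 0.99 for each), for Tgfb2 Tmtc3 and Eid2 (0.96 for each), for Tgfb3 Cdo1 and H13 (0.98 for each), and for Inhba Fbxl16 and Mmp14 (0.99 for each). For the receptors they were Lpgat1 (0.99) and Fosl2 (0.98) with Tgfbr1, Fndc3a (0.96) and Il6st (0.95) with Tgfbr2, and Pappa and Myh9 (0.98 for each) with Tgfbr3. For the feedback genes they were Fam219b (0.95) and Vps37d (0.94) with Smad7, and Per3 (0.91) and Lysmd2 (0.90) with Skil. Among the 9 genes, the highest r was 0.90 between Inhba and Tgfbr3, and the lowest was -0.71 between Tgfb1 and Skil. Tgfb1 and Tgfb2 ran at -0.53, and Tgfb2 and Tgfb3 at 0.74.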

How the data were processed

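RNA from 12 cultures (4 groups, 3 clones) was sequenced as strand-specific poly(A) libraries. The authors aligned reads with STAR (version 2.5.2 per the labels) to GRCm38, counted read pairs per gene with featureCounts and added the flow cells of a library. The deposited values are raw counts. Symbols, exon lengths and coordinates (1-based) came from GENCODE M21, which matched 55480 of 55573 identifiers. At most 4.13% of the 31-base words of each of the 9 genes occur in other genes.

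Counts were tested with edgeR 4.0.16 (R 4.3.3): filterByExpr by group, TMM, quasi-likelihood F test with group and clone, 12 libraries in 1 fit, Benjamini-Hochberg adjustment, threshold 0.05. Log2 CPM had a prior count of 2. Another fit tested clone by state. DESeq2 1.42.0 was an alternative. The script was tested on simulated data. The labels' clone numbers mark embryos and pair the libraries: residuals of the same clone correlated at 0.27 to 0.69 (18 pairs of libraries), those of other clones at -0.51 to 0.17. The sources disagree on the doxycycline dose: the labels, followed here, have 1 µg/ml, and the methods text of the study has 1 mg/ml. Counts lack molecular identifiers. With clone as a block, p-values rest on how the differences between groups vary among these 3 embryos, not on how their levels differ.

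The genes, lists and tests were chosen with earlier results of these data known. Named beside the 9 genes were pathway genes past the threshold (at most 3 per list and comparison), the 2 with the largest estimate per list for the averaged B12 change, and the 2 genes most like each of the 9 with mean log2 CPM of at least 1. Lrrc32, Cx3cr1, Pou5f1, the other marker genes and the pathway genes called only without clone 3 or only by DESeq2 were named after their values were seen. The values of 1 pathway gene past the threshold are not reported here.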

Additional observations from a re-analysis of the deposited data

Results flagged for a closer look

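For 6 named genes of the wider pathway, the response to induction differed between the 3 clones by the F test of edgeR. The adjusted p was 0.00212 for Id1, 0.00437 for Tgm2, 0.0128 for Inhbb, 0.0153 for Ltbp2, 0.0214 for Ltbp4 and 0.0351 for Ccn1. On the log2 CPM scale without B12, in clones 1, 2 and 3, the differences with induction were 0.97, 1.43 and 0.0044 for Id1, -0.89, -0.85 and -0.15 for Inhbb, and -0.86, -1.04 and -0.13 for Ltbp2. Those of Tgm2 were -0.64, -0.74 and -0.11, and those of Ltbp4 were 0.58, 0.67 and 0.13. Clone 3 was nearest to 0 in each of these 5 genes, as it was lowest in Pou5f1 RNA after induction, and the part of that in these values was not tested. For Ccn1 the differences were -0.29, -0.67 and -0.18, with clone 2 farthest from 0. Without clone 3, the adjusted p of these 6 lay above the threshold, between 0.711 for Ccn1 and 0.970 for Ltbp2. Groups of 3 libraries are too small for a test of single outlying samples.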

How the results depend on the processing

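With 1 clone (or the OSKM library of clone 1) left out, calls among the 9 genes ranged from 0 to 4 for induction without B12, from 0 to 2 for induction with B12, from 0 to 1 for B12 in MEF, from 0 to 2 for the averaged B12 change and from 0 to 1 for the clone test. DESeq2 called 2 genes for each induction and 2 for B12 in each state, against 0, 0, 1 and 0 in edgeR. Testing without a filter on low counts gave 2 calls for each induction, 1 for B12 in OSKM and 1 for the clone test, where Tgfb1 had an adjusted p of 0.0305. A fit of the MEF and MEF+B12 libraries alone called 3 genes for B12 in MEF, and scaling by library totals called 1 for B12 in OSKM. Without the replicate block there were 0 calls for B12 in MEF and 0 for the average, so these calls needed the pairing by embryo. DESeq2 size factors within edgeR and a minimum of 10 counts in every library left each of these counts within 1.5 times the reported one. The clone test has the clone as a term and was not run without it, nor on the libraries of 2 groups alone. The lowest count of any of the 9 genes in a library was 529 read pairs. The share of all genes called also moved with the setting. Without clone 3 it went from 0.073% to 6.87% for induction without B12 and from 0.104% to 5.22% with B12. Apart from these and the DESeq2 shares above, the shares of all genes under the other settings are not given. Those counts therefore cannot be set against all genes.

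Estimates that changed sign were all of genes not called in the reported fit. With library totals, Tgfbr2 was at 0.0040 for induction without B12, 0.018 for B12 in MEF, 0.0032 for B12 in OSKM and 0.010 for the average, Smad7 at 0.0012 for induction with B12 and Tgfbr1 at 0.0059 for B12 in MEF. For B12 in OSKM, Smad7 was at -0.0010 with DESeq2 and -0.0013 with its size factors in edgeR. For the averaged B12 change, Tgfbr1 was at -0.0014 with DESeq2, -0.0015 with its size factors, -0.0014 without a filter and -0.0081 without the block. With clones left out, Tgfbr2 ranged from -0.084 to 0.026 for induction without B12, from -0.029 to 0.022 for B12 in MEF, from -0.060 to 0.017 for B12 in OSKM and from -0.019 to 0.0012 for the average. Under the same omissions Skil ranged from -0.018 to 0.14 for induction with B12, Tgfbr1 from -0.044 to 0.020 for B12 in MEF, from -0.062 to 0.12 for B12 in OSKM and from -0.047 to 0.036 for the average, and Tgfbr3 from -0.10 to 0.042 and Smad7 from -0.083 to 0.11 for B12 in OSKM. The cause of these changes was not tested.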

Other observations

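The wider pathway gave edgeR calls for induction when clone 3 was left out, and these genes were named after their values were seen. Without B12, 13 of 73 genes passed, 2 higher and 11 lower, against 6.87% of all genes. The matrix genes Col1a1 (-0.62 ± 0.10, adjusted p = 0.0114), Col1a2 (-0.48 ± 0.08, adjusted p = 0.0169) and Col3a1 (-0.39 ± 0.07, adjusted p = 0.0210), which encode fibrillar collagens, were lower, and so was the crosslinking enzyme gene Tgm2 (-0.69 ± 0.06, adjusted p = 0.000949). Of the latency genes, 5 were called lower and 1 higher. The lower ones were Ltbp2 (-0.95 ± 0.08, adjusted p = 0.00103), Lrrc32 (-0.46 ± 0.06, adjusted p = 0.00547), Ltbp1 (-0.49 ± 0.08, adjusted p = 0.0146), Thbs1 (-0.37 ± 0.08, adjusted p = 0.0322) and Nrros (-0.46 ± 0.10, adjusted p = 0.0381). The higher one was Ltbp4 (0.63 ± 0.08, adjusted p = 0.00607). The BMP target Id1 was higher, at 1.21 ± 0.16 (adjusted p = 0.00662). With B12, 12 of 73 passed, 3 higher and 9 lower, against 5.22% of all genes. They included the contractile genes Acta2 (-0.54 ± 0.11, adjusted p = 0.0309), Tagln (-0.50 ± 0.08, adjusted p = 0.0136) and Cnn1 (-1.13 ± 0.18, adjusted p = 0.0121), which were lower, and the BMP-branch SMAD gene Smad9, which was higher (1.01 ± 0.18, adjusted p = 0.0171). In these 2 clones the interaction, the change with induction in the presence of B12 minus that in its absence, gave 0 edgeR calls among the 73 genes, so a difference in the response of the named genes with and without B12 was not shown.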
